A study of Mus musculus with 4 samples.

Results

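Neutrophil granule and alarmin genes were described here as a set of 10 named genes, S100a8, S100a9, Lcn2, Camp, Ngp, Ltf, Retnlg, Mmp8, Mmp9 and Cxcr2, of 31053 genes in the deposited count matrices. The genes were chosen by symbol and not by a filter on their values, though earlier results of these data were known. All 10 were found in the gene list. The matrices came from lungs of mice of C57BL/6 background, in which live CD45.2+ immune cells were sorted and sequenced by droplet 3′ single-cell RNA sequencing. Male mice of 5 to 10 weeks were either Ift20 f/f (WT) or Ift20 f/f CD4 cre (KO), a cross in which Cre is driven by the Cd4 promoter and acts in developing T cells, so neutrophils themselves were not the cells targeted. In the papain groups, 25 µg of papain, a plant protease used as an allergen, was given into the nose on 3 consecutive days and again on day 14, and lungs were taken on day 15. The other groups were given DPBS, a phosphate-buffered salt solution, in its place.

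Each of the 4 groups, named by treatment and genotype, was 1 library, and the number of mice behind a library was not given in the sources used here. Cells of 1 library are not replicates, so no comparison below has a test, and the intervals given (95%, exact) cover counting error only. The 4 comparisons, papain against DPBS in each genotype and KO against WT under each treatment, share libraries with one another and are given side by side.

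Neutrophils are built in the bone marrow in stages that leave different transcripts behind. Primary granule enzymes such as myeloperoxidase are made first, specific granule proteins (lactoferrin, cathelicidin, neutrophilic granule protein and lipocalin) next, and gelatinase granule proteins last, after which the cell acquires the chemokine receptor CXCR2 and leaves for the blood. S100A8 and S100A9 pair to form calprotectin, which makes up much of the neutrophil cytosol and, once released, acts as an alarmin. A neutrophil in tissue is therefore usually rich in S100a8, S100a9, Retnlg and Cxcr2 transcripts and poor in Camp, Ngp and Ltf.

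The matrices held 28805 barcodes (8552, 5946, 8444 and 5863 in this order: WT then KO given DPBS, WT then KO given papain, which holds for every set of 4 values here) and between 53854420 and 75675956 unique molecular identifiers (UMIs, counts of captured transcript molecules) per library. After quality filters 25982 cells remained. Pairs of libraries shared between 7 and 16 barcodes. Ift20, the targeted gene, checked the labels: it stood at 52.7, 19.5, 48.0 and 16.9 CPM (UMIs of a gene per 1000000 UMIs of a class and library) in T-like cells and at 44.0, 34.5, 39.1 and 40.5 CPM in B-like cells, so it was lower in T-like cells of both KO libraries. In a 3′ library the remaining Ift20 UMIs do not measure how complete the deletion was.

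Clusters were formed without the 10 genes and named from other markers. A single cluster of 821 cells was named neutrophil-like: Csf3r, the receptor for the growth factor G-CSF, was seen in 99.5% of its cells, Il1r2 in 97.7%, Mxd1 in 97.8%, Hdc in 97.3%, Trem1 in 94.2% and G0s2 in 94.0%, while Ly6g was seen in 13.8%. Of the classical monocyte markers Ccr2 was seen in 0.974% and Ly6c2 in 9.87% of these cells, and the eosinophil granule genes Epx, Prg2 and Prg3 were at 0. The cluster held 122, 109, 357 and 233 cells, which was 1.60% (1.33% to 1.91%), 2.0% (1.65% to 2.41%), 4.77% (4.30% to 5.28%) and 4.28% (3.76% to 4.85%) of the cells kept. Both papain libraries lay above both DPBS libraries, and the intervals of the 2 papain libraries overlapped. A second cluster of 53, 46, 71 and 64 cells was left unnamed because it carried neutrophil markers (Csf3r in 99.6% of cells) together with nonclassical monocyte markers (Ace in 97.9%, Treml4 in 88.9%, Cx3cr1 in 75.2%), and is called the mixed cluster below. Its median UMI counts per cell were 11174, 9888.5, 9171 and 11554, against 3282, 2962, 3134 and 3332 in neutrophil-like cells and 5679.5, 6333.5, 5552 and 6700.5 in nonclassical monocyte-like cells, and whether its barcodes held more than 1 cell was not tested beyond the removal of top doublet scores.

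The promoter windows of 6 genes are shown because these genes mark the opposite ends of the pattern described below: the alarmin pair filled the neutrophils, while most Camp, Ngp and Ltf UMIs lay in 1 cell and Lcn2 appeared in both settings. Windows of 300 bases (250 before to 50 after the RefSeq start, assembly GRCm38.p6) were available for 9 of the 10 genes, Mmp9 being the exception. Capitals mark matches to TTGCNNAA (TTNNGCAA on the other strand), the core of sites bound by the C/EBP family of granulocyte transcription factors, or to GAGGAAGT (ACTTCCTC on the other strand), a form of the site bound by PU.1. A match is a description of letters and not evidence of binding.
S100a8, chr3:90668821-90669120, + strand: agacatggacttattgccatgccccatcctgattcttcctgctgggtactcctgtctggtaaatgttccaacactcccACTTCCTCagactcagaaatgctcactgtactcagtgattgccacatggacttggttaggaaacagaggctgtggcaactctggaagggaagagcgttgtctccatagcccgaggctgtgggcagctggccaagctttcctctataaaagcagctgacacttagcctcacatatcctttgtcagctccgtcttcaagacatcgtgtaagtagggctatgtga
S100a9, chr3:90695672-90695971, - strand: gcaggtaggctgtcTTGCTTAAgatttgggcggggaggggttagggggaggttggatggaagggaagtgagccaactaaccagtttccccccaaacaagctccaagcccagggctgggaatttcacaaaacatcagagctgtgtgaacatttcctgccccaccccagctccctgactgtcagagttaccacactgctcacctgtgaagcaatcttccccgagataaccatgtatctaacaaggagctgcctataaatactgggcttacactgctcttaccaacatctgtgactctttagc
Lcn2, chr2:32387690-32387989, - strand: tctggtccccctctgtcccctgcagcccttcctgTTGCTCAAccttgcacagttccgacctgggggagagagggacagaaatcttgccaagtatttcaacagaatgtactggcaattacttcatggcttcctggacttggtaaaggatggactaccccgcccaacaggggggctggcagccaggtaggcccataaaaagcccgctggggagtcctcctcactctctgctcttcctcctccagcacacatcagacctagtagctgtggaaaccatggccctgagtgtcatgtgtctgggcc
Camp, chr9:109849407-109849706, - strand: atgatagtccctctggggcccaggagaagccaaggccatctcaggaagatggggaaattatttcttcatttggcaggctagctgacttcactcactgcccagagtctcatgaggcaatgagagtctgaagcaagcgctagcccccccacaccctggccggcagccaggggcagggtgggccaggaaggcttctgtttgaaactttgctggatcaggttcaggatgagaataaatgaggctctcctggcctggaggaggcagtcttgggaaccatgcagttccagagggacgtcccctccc
Ngp, chr9:110419558-110419857, + strand: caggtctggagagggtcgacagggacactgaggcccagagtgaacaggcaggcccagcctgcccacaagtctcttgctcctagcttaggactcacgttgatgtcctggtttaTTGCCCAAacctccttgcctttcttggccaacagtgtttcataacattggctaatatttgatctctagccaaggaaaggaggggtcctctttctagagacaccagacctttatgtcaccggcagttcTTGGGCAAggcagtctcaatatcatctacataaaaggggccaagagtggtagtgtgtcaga
Ltf, chr9:111019042-111019341, + strand: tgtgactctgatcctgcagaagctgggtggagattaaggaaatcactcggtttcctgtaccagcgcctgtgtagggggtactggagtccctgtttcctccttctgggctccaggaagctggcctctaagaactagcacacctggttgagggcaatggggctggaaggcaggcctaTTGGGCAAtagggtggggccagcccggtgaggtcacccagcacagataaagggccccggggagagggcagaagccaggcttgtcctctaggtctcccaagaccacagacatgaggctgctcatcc
The TTGCNNAA motif occurred in 6 of the 9 windows (S100a9, Lcn2, Ngp, Ltf, Retnlg and Mmp8) and in 10.8% of all 32851 promoter windows of this length, with 2 matches in Ngp, at bases -138 and -11 from the start. The GAGGAAGT motif occurred in 2 of 9 (S100a8 and Mmp8) and in 3.20% of all windows. The full palindrome TTGCGCAA occurred in none of the 9 and in 0.183% of all windows. On GRCm38 the alarmin genes lie 22.6 kb apart on chromosome 3 (S100a8 at chr3:90668978-90670035 and S100a9 at chr3:90692632-90695721), and Camp, Ngp and Ltf lie within 1.20 Mb on chromosome 9 (from chr9:109847379-109849617 to chr9:111019271-111042767).

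S100a8 and S100a9 were the most abundant of the 10 transcripts in neutrophil-like cells of every library, where together (UMIs of a 3′ library do not scale with transcript length) they made up 9.19%, 7.80%, 9.11% and 8.24% of all UMIs. S100a8 stood at 35778, 32571, 36198 and 33409 CPM, and S100a9 at 56097, 45418, 54856 and 49033 CPM. For both genes the KO library lay below the WT library under each treatment, and papain and DPBS libraries differed by at most 0.11 on the log2 scale. For the sum of both, KO over WT gave a log2 ratio of -0.24 (-0.26 to -0.21) under DPBS and of -0.14 (-0.16 to -0.13) under papain, and over the 11 alternative ways of processing it ranged from -0.42 to -0.22 and from -0.30 to -0.14. Papain over DPBS gave -0.01 (-0.03 to 0.00) in WT and 0.08 (0.06 to 0.10) in KO. For S100a9 alone these ratios were -0.03 (-0.05 to -0.01) and 0.11 (0.08 to 0.14), but the WT value turned positive under 4 alternatives (0.02 to 0.38), among them scaling by TMM factors.

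Single neutrophil-like cells differed in alarmin content far more than the libraries did. The median cell carried 289.5, 133, 230 and 241 S100a8 and S100a9 UMIs, which was 8.54%, 5.01%, 7.56% and 7.06% of its UMIs. The lower decile of cells was at 2.62%, 1.51%, 2.09% and 1.42% and the upper decile at 17.3%, 15.2%, 16.7% and 15.4%. DPBS KO thus had the lowest median, which lay below the lower quartile of DPBS WT (5.10%), although the ranges between deciles of all 4 libraries overlapped. At least 100 alarmin UMIs were found in 86.9%, 63.3%, 79.0% and 78.1% of cells.

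Lcn2, which encodes the iron-siderophore binding protein lipocalin 2 (NGAL), was the only one of the 4 specific granule genes measured broadly in neutrophil-like cells. It stood at 797, 563, 1011 and 957 CPM (371, 194, 1279 and 837 UMIs), with DPBS KO lowest and both papain libraries above both DPBS libraries. Its log2 ratio of papain to DPBS was 0.34 (0.18 to 0.52) in WT and 0.77 (0.54 to 1.00) in KO, and ranged from 0.19 to 0.65 and from 0.74 to 0.85 over the alternatives. Set against WT, Lcn2 in KO gave -0.50 (-0.76 to -0.25) under DPBS and -0.08 (-0.21 to 0.05) under papain. With each cell thinned to 1000 UMIs, Lcn2 was seen in 33.1%, 29.1%, 40% and 38.9% of neutrophil-like cells, against 57.4%, 41.3%, 55.2% and 56.2% without thinning and at most 0.069% of B-like cells at the same thinned depth.

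Camp (cathelicidin), Ngp (neutrophilic granule protein) and Ltf (lactoferrin), which are made by maturing cells of the marrow, were almost absent from neutrophil-like cells except in 1 cell. Their summed UMIs were 8, 3, 623 and 9, found in 5, 3, 25 and 8 cells, and Camp alone had 0, 0, 146 and 1 UMIs. In Papain WT a single cell held 587 of the 623 UMIs, with 146 of Camp, 307 of Ngp and 134 of Ltf, and no other cell in any library had all 3 genes. Only 2 cells, both in Papain WT, had 5 or more UMIs of the 3 genes.

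The rich cell had 10028 UMIs in 2444 genes and also carried 139 UMIs of Lcn2, 618 of S100a8, 840 of S100a9, 117 of Retnlg, 24 of Mmp8, 31 of Mmp9 and 7 of Cxcr2. It had UMIs of all 8 neutrophil markers, among them 33 of Il1r2, 20 of Hdc and 8 of Ly6g, and 32 of Olfm4, another specific granule gene. The 6 primary granule genes searched (Mpo, Elane, Prtn3, Ctsg, Ms4a3 and Fcnb) and the 5 genes of dividing cells (Mki67, Top2a, Birc5, Tyms and Pclaf) were at 0 in it. This cell was singled out after its values were seen.

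**Figure D1:**
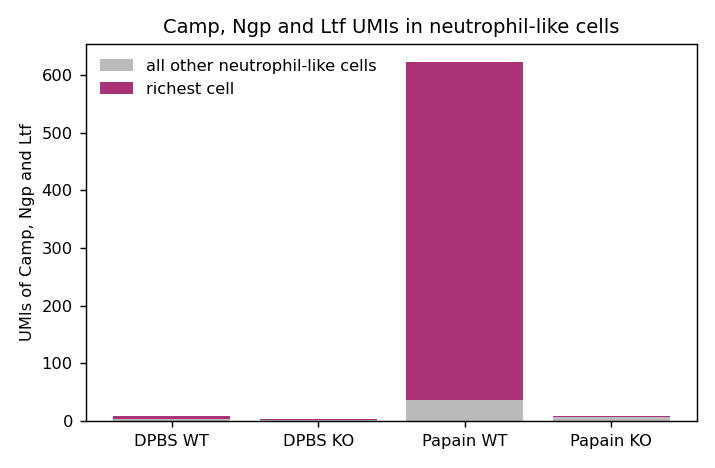
Summed UMIs of Camp, Ngp and Ltf (vertical axis, UMIs) in neutrophil-like cells of each library (horizontal axis), with the share of the richest cell in purple and all other cells in grey. The Papain WT bar reaches 623 UMIs, of which 587 belong to 1 cell, while the other bars stay at 9 or below.

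That cell set the fold changes of all 3 genes in Papain WT. With it, Ngp stood at 12.9, 5.80, 261 and 4.57 CPM and Ltf at 4.29, 2.90, 116 and 4.57 CPM, which gave log2 ratios of papain to DPBS in WT of 4.34 (3.20 to 5.80) and 4.76 (2.88 to 7.82). Camp in Papain WT was at least 17.9-fold higher than in DPBS WT, where it had no UMI, taking 3 counts per library as the floor. Leaving out the richest cell of each library lowered the ratios to 2.08 (0.06 to 5.21) for Ngp and 2.27 (-0.47 to 7.67) for Ltf, and no Camp UMI was left in neutrophil-like cells of Papain WT. For the sum of the 4 specific granule genes the log2 ratio of papain to DPBS in WT went from 0.89 (0.73 to 1.05) to 0.29, and that of KO to WT in papain from -0.64 (-0.75 to -0.52) to -0.02, when the richest cells were left out. In KO the papain ratio of the sum was 0.76 (0.53 to 0.99) and 0.78 without them.

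Against all genes with at least 20 UMIs in the 2 libraries compared, 5.05% were at least 2-fold higher in papain than in DPBS in WT neutrophil-like cells, and 3 of the 10 genes (Camp, Ngp and Ltf) were. Without the richest cells 1 of 8 was (Ngp). Camp, Ngp and Ltf reached 20 UMIs only through Papain WT (146, 330 and 147 UMIs), both here and between KO and WT in papain. The filter thus favoured counting them as higher in that library. In KO 5.4% of genes were at least 2-fold higher and 2.08% lower, with 0 of the 7 genes that reached 20 UMIs in either direction. Between KO and WT in DPBS 3.53% of genes were at least 2-fold lower and 2.72% higher, with 0 of 7 genes in either. Between KO and WT in papain 3.9% were at least 2-fold lower, with Camp, Ngp and Ltf again as 3 of 10 (Ngp as 1 of 8 without the richest cells), and 1.9% were higher, with 0 of 10. In WT 2.8% of genes were lower in papain, with 0 of 10. For papain over DPBS the median log2 ratio of the members was 0.12 in WT (0.02 for all genes), with 7 of 10 above 0 (51.7% of all genes), and 0.04 in KO (0.01), with 4 of 7 above 0 (51.3%). For KO over WT it was -0.19 in DPBS (0.02), with 1 of 7 above 0 (52.2%), and -0.30 in papain (0.01), with 1 of 10 above 0 (50.9%). In papain 3 of the negative ratios were those of Camp, Ngp and Ltf, whose Papain WT UMIs lay mostly in 1 cell, and without the richest cells the median was -0.21 with 2 of 8 above 0.

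Other stages of the granule programme were near the limit of detection. The 6 primary granule genes together had 0, 3, 8 and 2 UMIs in neutrophil-like cells, and the 5 genes of dividing cells had 3, 0, 9 and 4. Prtn3 (proteinase 3) had 0, 0, 7 and 2 UMIs and Mpo 0, 3, 0 and 0, and none of the 11 genes reached 20 UMIs in any comparison. Cebpe, the factor that drives specific granule genes, stood at 15.0, 14.5, 13.4 and 9.15 CPM with 37 UMIs in all, whereas Cebpb, a factor of mature and activated myeloid cells, stood at 10688, 11039.8, 11203 and 11052 CPM.

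Retnlg, which encodes the secreted resistin-like protein gamma, was the third most abundant of the 10 transcripts, at 5069, 4020.3, 4756 and 3599 CPM. Both KO libraries lay below both WT libraries. Retnlg in KO over WT gave a log2 ratio of -0.33 (-0.43 to -0.24) under DPBS and of -0.40 (-0.46 to -0.34) under papain, with ranges of -0.47 to -0.31 and -0.55 to -0.31 over the alternatives. The ratio of papain to DPBS was -0.09 (-0.16 to -0.02) in WT and -0.16 (-0.25 to -0.07) in KO, and turned positive in WT (0.38) and KO (0.14) when the mixed cluster was counted as neutrophil and in KO (0.06) when cells were classed by a gate on marker transcripts. After thinning, Retnlg was seen in 76.0%, 74.8%, 71.7% and 69.4% of neutrophil-like cells.

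Mmp9 (gelatinase B) and Mmp8 (neutrophil collagenase), which encode granule proteases, stood at opposite ends of their ranges in Papain KO. Mmp9 stood at 1449, 1613, 1478 and 1243 CPM, with Papain KO lowest. Its log2 ratio of papain to DPBS was 0.03 (-0.10 to 0.16) in WT and -0.38 (-0.52 to -0.23) in KO, and that of KO to WT in papain was -0.25 (-0.36 to -0.14). Mmp8 stood at 288, 252, 272 and 339 CPM, with Papain KO highest. Its log2 ratio of papain to DPBS was -0.08 (-0.37 to 0.22) in WT and 0.42 (0.07 to 0.79) in KO, and that of KO to WT in papain was 0.32 (0.09 to 0.54). Thinned shares followed the same order: Mmp9 was seen in 75.2%, 78.6%, 76.9% and 64.6% of cells and Mmp8 in 20.7%, 17.5%, 18.9% and 25.8%. Whether the papain ratio of either gene differed between genotypes was not tested.

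Cxcr2, the receptor through which neutrophils follow CXCL1 and CXCL2, stood at 704, 685, 817 and 639 CPM in neutrophil-like cells. Papain WT was highest and Papain KO lowest. For Cxcr2, KO over WT gave a log2 ratio of -0.04 (-0.29 to 0.20) under DPBS and of -0.35 (-0.50 to -0.20) under papain, the latter ranging from -0.56 to -0.32 over the alternatives. Its sister receptor Cxcr1 was scarce, with 3, 6, 25 and 5 UMIs, and Cxcr4, which holds neutrophils in the marrow and rises as they age, stood at 1204, 1105, 1037 and 969 CPM. After thinning, Cxcr2 was seen in 45.5%, 45.6%, 54.3% and 41.0% of cells.

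**Figure D2:**
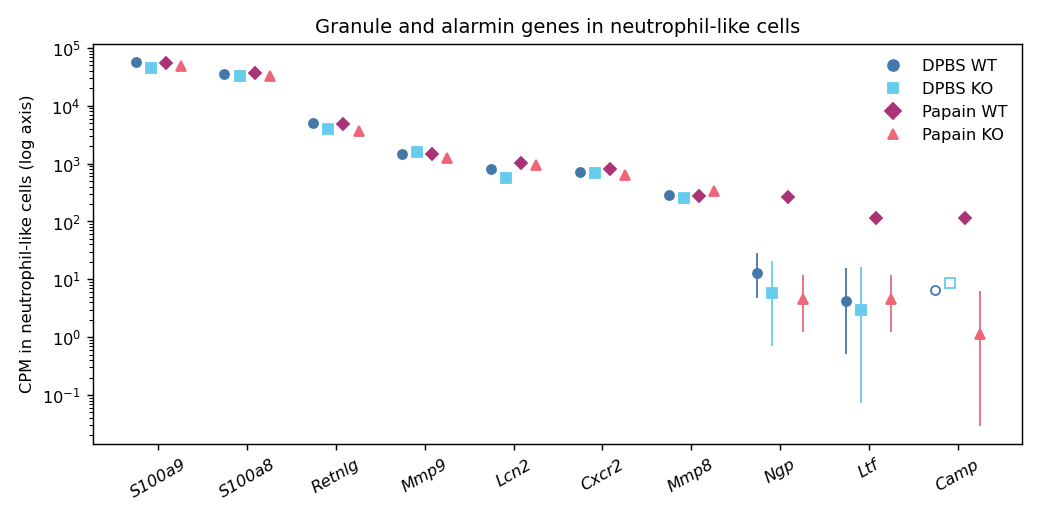
Level of each of the 10 genes (horizontal axis) in neutrophil-like cells, in CPM on a log axis, for the 4 libraries, with exact 95% Poisson intervals that cover counting error only. Open symbols mark a library with no UMI and are drawn at the level of 3 counts. The 7 genes on the left differ by less than 2-fold between libraries, while Ngp, Ltf and Camp stand apart in Papain WT, where 1 cell holds 587 of their 623 UMIs.

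Most other genes of neutrophil function differed by less than 2-fold between libraries. Of 14 other granule and effector genes, 13 reached 20 UMIs for papain against DPBS in WT, and 0 were at least 2-fold higher and 1 lower (Cybb, the large subunit of the phagocyte oxidase, from 94.5 to 41.9 CPM), beside 5.05% and 2.8% of all genes. In KO 2 of 12 were at least 2-fold lower (Chil3 and Cd177; 2.08% of all genes), between KO and WT in DPBS 1 of 12 was (Cybb; 3.53% of all genes), and between KO and WT in papain 3 of 13 were lower (Chil3, Cd177 and Olfm4), beside 3.9% of all genes. Between KO and WT, Cybb in DPBS (9 against 44 UMIs) reached 20 UMIs only through WT. In papain the same held for Cd177 (10 against 31) and Olfm4 (7 against 56). For these genes the filter favoured a count as lower in KO. The cell rich in Camp, Ngp and Ltf held 32 of the 56 Olfm4 UMIs, 6 of the 31 Cd177 UMIs and 19 of the 245 Chil3 UMIs of Papain WT. Without it 2 of 13 were lower, as Cd177 went from -1.10 to -0.80 on the log2 scale, while Olfm4 went from -2.47 to -1.26 (-2.72 to 0.0016) and Chil3 from -1.62 to -1.52. Chil3, a chitinase-like lectin, stood at 107, 136, 194 and 62.9 CPM. Among the 4 with the most UMIs, haptoglobin (Hp) stood at 1548, 1497, 1533 and 1869 CPM, Pglyrp1, which binds bacterial peptidoglycan, at 1200.2, 1209.6, 1178 and 1162 CPM, Cyba, the small oxidase subunit, at 1415, 1389, 1056 and 1255 CPM, and lysozyme (Lyz2) at 2241, 1465, 1241 and 1300.3 CPM. Lyz2 was thus highest in DPBS WT, and papain over DPBS was -0.85 (-0.97 to -0.74) on the log2 scale in WT, and -0.17 (-0.32 to -0.02) in KO.

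Of 12 receptor genes, 10 reached 20 UMIs in WT, where 1 was at least 2-fold higher in papain and 0 lower, beside 5.05% and 2.8% of all genes. It was Cxcr1, with 3 against 25 UMIs and a log2 ratio of 1.62 (-0.09 to 3.99). In KO 1 of 9 was higher, beside 5.4% of all genes. It was Tlr4, with 3 against 22 UMIs and 1.53 (-0.20 to 3.92). Between KO and WT in papain 1 of 10 was lower, beside 3.9% of all genes (Cxcr1, -1.79, -3.53 to -0.38). In DPBS 0 of 8 passed 2-fold, while 2.72% of all genes were higher and 3.53% lower. Cxcr1 and Tlr4 reached 20 UMIs only through the library where they were high. Ccr1 stood at 917, 992, 817 and 1028 CPM, C5ar1, the receptor for complement C5a, at 917, 1085, 969 and 1066 CPM, and Selplg, the selectin ligand used in rolling, at 1031, 1152, 1152 and 1164 CPM. Of the protease inhibitors, Timp2 stood at 131, 186, 194 and 168 CPM, Cstb (cystatin B) at 447, 621, 441 and 508 CPM, and Timp1, the main inhibitor of MMP9, had no UMI in neutrophil-like cells. Spi1, which encodes PU.1, stood at 1316, 1229.9, 1069 and 1032 CPM, and Cebpd at 459, 412, 503 and 374 CPM. Of the 6 transcription factors, 4 reached 20 UMIs for papain against DPBS in WT and 3 in KO. Between KO and WT 3 did in DPBS and 5 in papain. Of these Cebpa alone passed 2-fold, between KO and WT in papain (12 against 8 UMIs). Its log2 ratio was 1.12 (-0.29 to 2.61), and 1.9% of all genes were at least 2-fold higher there. For papain over DPBS in WT Cebpa had 8 against 11 UMIs, too few to be counted, and a log2 ratio of -1.90 (-3.42 to -0.45). Of the 6 CXCR2 ligands 3 reached 20 UMIs in each comparison. Of the 5 protease inhibitors 2 did, or 3 between KO and WT in papain. Among these few genes 0 passed 2-fold in any comparison, beside 1.9% to 5.4% of all genes in each direction.

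The ligands of CXCR2 were found in neutrophil-like cells themselves and in macrophage-like cells. Cxcl2 stood at 12262, 9920.1, 11042 and 10804 CPM in neutrophil-like cells, at 2743, 3066, 2652 and 4185 CPM in interstitial macrophage-like cells and at 1088, 702, 1033 and 1145 CPM in alveolar macrophage-like cells, against 14.6 to 18.5 CPM in B-like cells. Among classes with at least 50 cells in every library Cxcl1 was highest in interstitial macrophage-like cells, at 242, 144, 261 and 626 CPM, where Papain KO was highest. Cxcl3 stood at 262, 322, 340.0 and 276 CPM in neutrophil-like cells. Cxcl5, Cxcl15 and Ppbp together had at most 2 UMIs in neutrophil-like cells of any library.

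Summed over all cells kept, S100a8 and S100a9 stood at 842, 729, 2055 and 1843 CPM, so papain over DPBS was 1.29 (1.27 to 1.30) in WT and 1.34 (1.32 to 1.36) in KO on the log2 scale. In such whole-library sums more cells of a type and more RNA per cell cannot be told apart. Within neutrophil-like cells the same ratios were near 0, as given above, and the share of neutrophil-like cells was higher in both papain libraries. Neutrophil-like cells held 75.4%, 70.9%, 84.3% and 78.8% of all alarmin UMIs and the mixed cluster 22.1%, 25.4%, 13.2% and 19.3%, while B-like and T-like cells together held 0.454%, 0.343%, 0.402% and 0.388%.

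Retnlg, Mmp9 and Lcn2 were divided in a like way, with 62.4% to 88.1% of their UMIs in neutrophil-like cells, but Mmp8, Cxcr2 and Ltf were not. Only 12.6%, 9.99%, 25.2% and 32.5% of Mmp8 UMIs were in neutrophil-like cells, while macrophage-like cells held 72.1%, 76.5%, 37.3% and 49.2% and monocyte-like cells 9.38%, 8.73%, 30.9% and 7.68%. Of Cxcr2 UMIs neutrophil-like cells held 48.8%, 37.6%, 73.3% and 70.9% and macrophage-like cells 27.1%, 42.2%, 7.02% and 7.36%. The few Ltf UMIs (13, 7, 169 and 10 over all cells kept) were in neutrophil-like cells for 15.4%, 14.3%, 87.0% and 40% of the total, and 134 of those of Papain WT were in the rich cell. Camp had no UMI in either DPBS library.

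In the mixed cluster S100a8 stood at 8935, 8064, 10365 and 9513 CPM and S100a9 at 12205, 11923, 15642 and 13992 CPM. The same cluster had Retnlg at 720.4, 779, 1003 and 888 CPM, Mmp9 at 358, 411, 407 and 387 CPM, Lcn2 at 209, 206, 225 and 201 CPM and Cxcr2 at 211, 174, 272 and 172 CPM, all below the neutrophil-like level and far above the B-like level. Counting this cluster as neutrophil moved the log2 alarmin ratio of papain to DPBS to 0.38 in WT and 0.32 in KO.

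Alveolar macrophage-like cells (1415, 1219, 831 and 519 cells) carried low levels of Mmp8 and S100a8 in many cells. Mmp8 stood at 27.8, 28.3, 27.3 and 40.9 CPM and was seen in 29.8%, 28.9%, 23.1% and 37.8% of these cells, against 0.099 to 0.498 CPM in B-like cells, so Papain KO was highest. S100a8 stood at 18.5, 27.7, 23.1 and 26.1 CPM, against 4.17, 3.69, 9.79 and 4.54 CPM in B-like cells, and was seen before thinning in 24.0%, 25.5%, 25.5% and 29.1% of cells. S100a9 stood at 7.61, 13.6, 12.3 and 18.5 CPM, against 8.53, 7.96, 15.6 and 13.9 CPM in B-like cells, so it was near the B-like level. Cxcr2 stood at 6.58, 11.3, 5.54 and 5.05 CPM, with DPBS KO highest, against 0.198 to 1.77 CPM in B-like cells. Median UMIs per cell were 16860 to 19760 in alveolar macrophage-like cells and 3888 to 4781 in B-like cells, so shares of cells with a UMI cannot be set against one another without thinning. Thinned to 1000 UMIs, Mmp8 was seen in 3.39%, 2.55%, 2.05% and 5.2% of alveolar macrophage-like cells and in at most 0.045% of B-like cells.

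The balance of the alarmin pair differed between macrophages and neutrophils. S100a9 was 61.1%, 58.2%, 60.2% and 59.5% of the pair's UMIs in neutrophil-like cells and 57.7%, 59.7%, 60.1% and 59.5% in the mixed cluster. In alveolar macrophage-like cells it was 29.2%, 32.9%, 34.7% and 41.5%, and 24.7%, 29.4%, 35% and 36.4% with the richest cell of each library left out, so S100a8 exceeded S100a9 in all 4 libraries. In interstitial macrophage-like cells, without the richest cell, it was 31.8%, 23.1%, 33.4% and 15.5%, with wide intervals in both DPBS libraries (13.9% to 54.9% and 5.04% to 53.8%). The share in B-like and T-like cells lay between 61.4% and 75.4%, nearer the neutrophil-like share. S100a9 in alveolar macrophage-like cells was 0.89, 1.71, 0.79 and 1.33 times the B-like CPM, and free RNA was not subtracted from these shares.

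**Figure D3:**
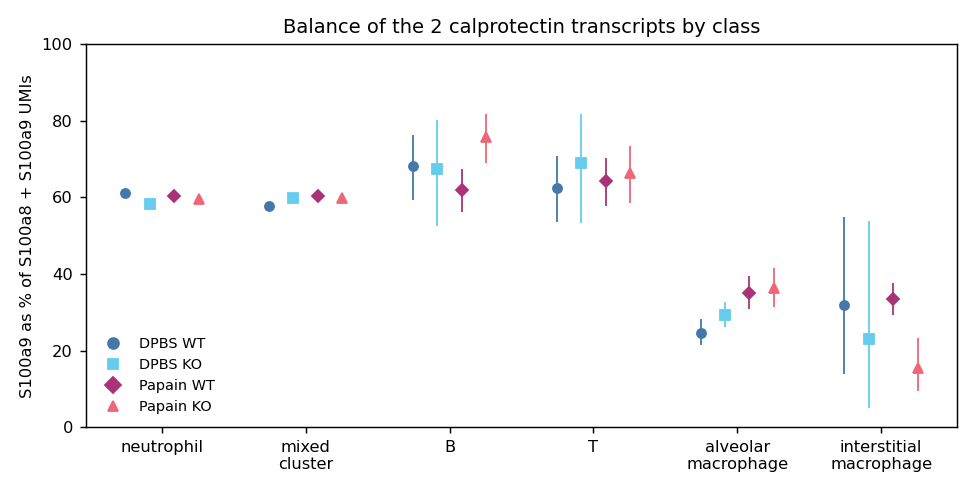
S100a9 as a percent of S100a8 plus S100a9 UMIs (vertical axis, percent) by cell class (horizontal axis) and library, with the cell richest in the pair left out of each class and library and exact 95% binomial intervals that cover counting error only. Neutrophil-like, mixed, B-like and T-like cells lie between 57.7% and 75.7%, and both macrophage classes lie between 15.5% and 36.4%.

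A further cluster of 370, 292, 462 and 281 cells scored highest for classical monocyte markers (2.74) and is called classical monocyte-like, but it also scored 2.40 for nonclassical ones, so the name is that of its higher score and markers of both were seen in it. Of the classical markers Ms4a4c was seen in 84.2%, Ccr2 in 75.7%, Ly6c2 in 68.3%, Fn1 in 61.9%, F13a1 in 59.2% and Vcan in 24.8% of its cells. Of the nonclassical markers Cx3cr1 was seen in 77.4%, Ace in 75.8%, Adgre4 in 75.7%, Treml4 in 62.1%, Eno3 in 48.5% and Cd300e in 13.8%. In nonclassical monocyte-like cells Eno3 was seen in 84.0% and Cd300e in 80.1%. These shares are pooled over libraries, and the widest range between libraries was that of Vcan, from 13.5% to 42.9%. Whether the make-up of the cluster differed between libraries was not tested. A gate that kept only cells with at least 3 classical markers, and with a larger share of those markers seen than of the markers of any other class, held 154, 122, 284 and 106 cells, and values under it are given beside the results. Cells of the cluster had an alarmin UMI in 7.57%, 6.51%, 23.6% and 19.6% of cells. Their summed S100a8 and S100a9 UMIs were 125, 69, 924 and 64 (30.1, 19.8, 160.3 and 17.6 CPM), with Papain WT highest, but the richest single cell held 84 of 125 in DPBS WT, 50 of 69 in DPBS KO and 709 of 924 in Papain WT, and 3 of 64 in Papain KO. The summed levels, with the richest cells kept, were 2.37, 1.70, 6.31 and 0.957 times the B-like CPM, so Papain KO was near the B-like level. Nonclassical monocyte-like cells stood at 51.8, 42.6, 88.9 and 20.6 CPM, or 4.08, 3.65, 3.50 and 1.12 times the B-like CPM. Their richest cells held 74, 37, 75 and 4 UMIs. Free RNA was not subtracted from any of these values. In WT classical monocyte-like cells papain over DPBS gave a log2 ratio of 2.41 (2.14 to 2.69), and 1.92 without the richest cells. In KO it gave -0.17 (-0.68 to 0.35), and 1.62 without them. KO over WT in papain gave -3.18 (-3.57 to -2.82), and -1.15 without the richest cells. The WT papain ratio was 0.28 with cells classed by a gate, 0.38 without alignment of the libraries and 0.53 with doublets kept, and the ratio of KO to WT in papain was 0.09 with doublets kept.

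Lcn2 and Mmp8 in the same monocytes did not rest on 1 cell. Lcn2 UMIs were 3, 4, 116 and 1 (0.723, 1.15, 20.1 and 0.276 CPM), found in 3, 3, 42 and 1 cells, with at most 15 in 1 cell. Of the 42 cells of Papain WT, 22 had no S100a8 or S100a9 UMI and 39 had fewer than 5, and those 39 cells held 95 of the 116 Lcn2 UMIs. Papain over DPBS in WT gave a log2 ratio of 4.80 (3.21 to 7.10), and it ranged from 3.54 to 5.18 over the alternatives, with 4.62 (2.73 to 7.68) under the gate. Ngp and Camp had together at most 1 UMI in these cells of any library.

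Mmp8 UMIs were 97, 75, 421 and 70 (23.4, 21.5, 73.0 and 19.3 CPM), found in 16.5%, 17.8%, 34.8% and 13.9% of classical monocyte-like cells, with Papain WT above the other libraries. The log2 ratio of papain to DPBS was 1.64 (1.32 to 1.98) in WT and -0.16 (-0.65 to 0.33) in KO, and that of KO to WT in papain was -1.92 (-2.31 to -1.55). Over the alternatives these ranged from 1.15 to 1.68, -0.26 to 0.06 and -1.98 to -1.21, and under the gate they were 1.15 (0.80 to 1.51), -0.034 (-0.55 to 0.48) and -1.21 (-1.62 to -0.83). Of the 42 cells with Lcn2 in Papain WT, 27 also had Mmp8. Median UMIs per cell were 11090.5, 12235.5, 12723 and 12553, which were close to one another in the papain libraries. In nonclassical monocyte-like cells Mmp8 had 3, 1, 0 and 0 UMIs and Lcn2 1, 0, 4 and 0.

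Read against all genes, 2.51% were at least 2-fold higher in papain than in DPBS in WT classical monocyte-like cells, and 1.7% were lower. Of the 6 members with 20 UMIs, 5 were higher (S100a8, S100a9, Lcn2, Retnlg and Mmp8) and 0 lower, or 4 of 5 higher without the richest cells. Lcn2 and Retnlg reached 20 UMIs only through Papain WT (116 and 24 UMIs), here and in the comparison of KO with WT in papain. In the latter comparison S100a8 did too, with 408 UMIs in Papain WT against 17 in Papain KO. The filter thus favoured counting these genes as higher in Papain WT. Under the gate the WT papain ratio was 0.20 (-0.03 to 0.44) for S100a8 and 0.33 (0.13 to 0.53) for S100a9, both below 2-fold. In KO 2.13% of genes were higher, with 0 of 3 (1 of 2 without the richest cells), and 0.836% were lower, with 0 of 3. Between KO and WT in papain 2.84% were at least 2-fold lower, with the same 5 of 6 (3 of 4 without the richest cells), and between KO and WT in DPBS 3.64% were, with 0 of 4 (1 of 3 without the richest cells). Genes at least 2-fold higher in KO made up 1.2% in papain, with 0 of 6, and 1.57% in DPBS, with 0 of 4.

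**Figure D4:**
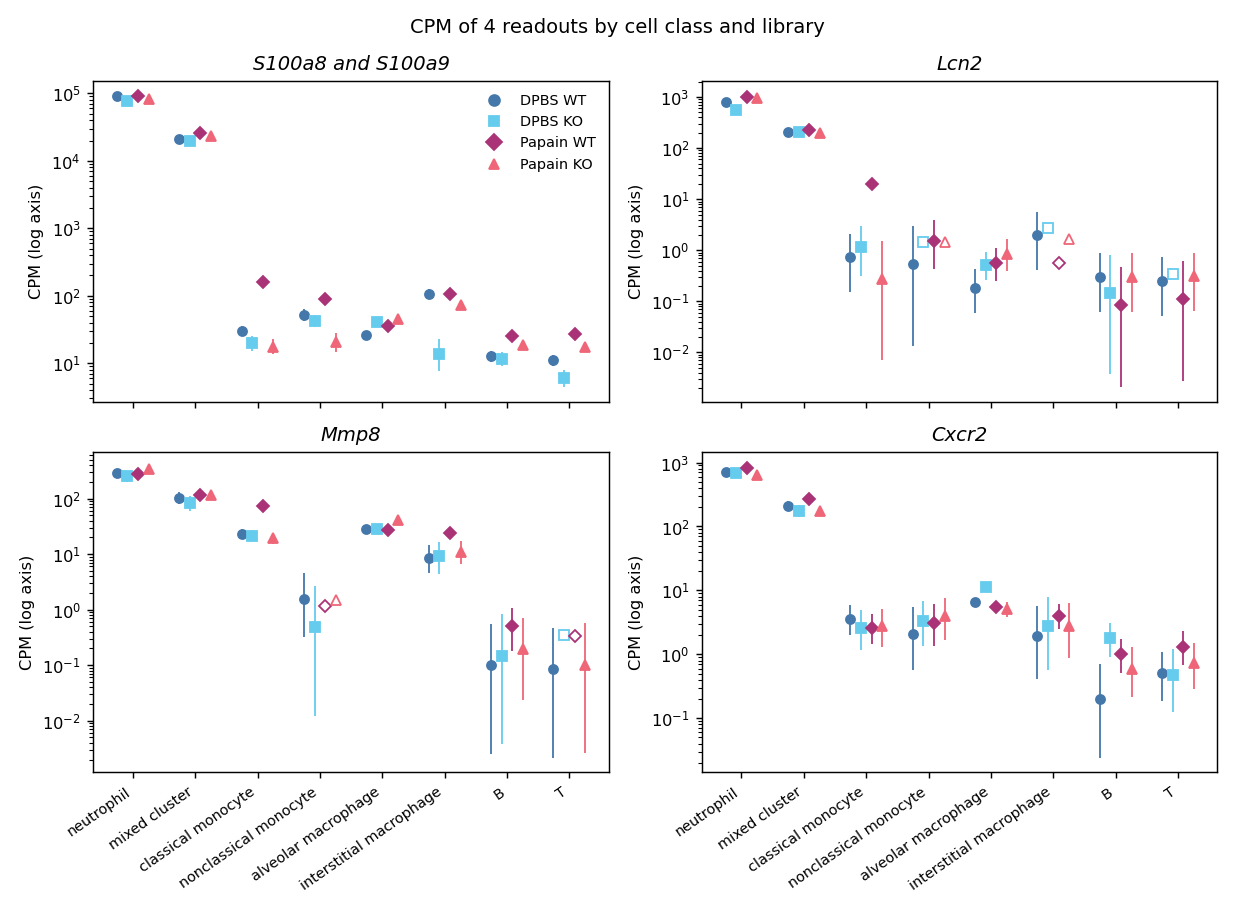
CPM (log axis) of the alarmin pair, Lcn2, Mmp8 and Cxcr2 in 8 cell classes of the 4 libraries, with exact 95% Poisson intervals that cover counting error only and open symbols, drawn at 3 counts, where a library has no UMI. Lcn2 and Mmp8 in classical monocyte-like cells are highest in Papain WT, at 20.1 and 73.0 CPM.

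Lymphocytes are not known to express the alarmin pair, so its UMIs in them gauge free or co-captured RNA from other cells. In B-like cells S100a8 and S100a9 had 128, 79, 306 and 187 UMIs (12.7, 11.6, 25.4 and 18.4 CPM) and in T-like cells 130, 51, 243 and 168 (11, 5.96, 26.7 and 17.3 CPM). Both classes were lowest in DPBS KO and highest in Papain WT, as the sum over all cells was. The log2 ratio of papain to DPBS was 1.00 (0.70 to 1.31) in WT and 0.66 (0.28 to 1.06) in KO in B-like cells, and 1.28 (0.96 to 1.59) and 1.54 (1.08 to 2.02) in T-like cells. A single B-like cell of DPBS KO held 30 of its library's 79 UMIs, and without the richest cells the KO ratio was 1.34. Of all genes in B-like cells 2.78% were at least 2-fold higher in papain in WT, with 1 of 3 members (S100a8), and 1.66% in KO, with 0 of 2 (1 of 2 without the richest cells), while KO over WT in papain was lower by 2-fold or more for 1.68% of genes, with 1 of 3 (S100a8), and higher for 1.01%, with 0 of 3. Genes lower in papain made up 1.25% in WT and 0.643% in KO, and KO over WT in DPBS was 2-fold higher for 1.02% and lower for 1.22%, each with none of the members.

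These levels were small beside those of neutrophil-like cells. Retnlg had 62.5, 63.3, 45.8 and 37.4 UMIs per 1000 alarmin UMIs in B-like cells and 69.2, 19.6, 82.3 and 23.8 in T-like cells (9, 1, 20 and 4 UMIs), against 55.2, 51.5, 52.2 and 43.7 in neutrophil-like cells, and 11.3, 15.7, 34.1 and 64.1 in alveolar macrophage-like cells. Thinned to 1000 UMIs, S100a8 was seen in 0.585%, 0.206%, 0.914% and 0.346% of B-like cells and in 99.2%, 100%, 99.1% and 95.6% of neutrophil-like cells. Camp had 1 UMI in all B-like cells and 0 in all T-like cells. When B-like cells were defined by a gate on marker transcripts, the WT papain ratio of the alarmin pair turned to -0.50 and the ratio of KO to WT in papain to 2.12.

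**Figure D5:**
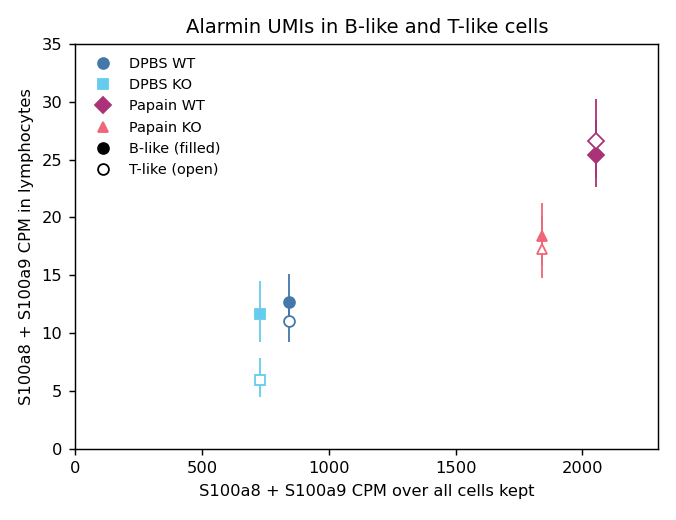
Alarmin level in B-like (filled) and T-like (open) cells (vertical axis, CPM) against the level over all cells kept (horizontal axis, CPM), for the 4 libraries, with exact 95% Poisson intervals that cover counting error only. The papain libraries lie to the right of and above the DPBS libraries, and Papain WT, at 2055 CPM over all cells, is highest in both classes.

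Single cells also stood out in other classes. In NK-like cells of DPBS KO 122 of 126 alarmin UMIs were in 1 cell, and in conventional dendritic-like cells of Papain KO 407 of 578 were. In interstitial macrophage-like cells of DPBS WT 143 of 165 were in 1 cell. What these barcodes held was not tested.

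Across 39 points (10 named classes by library, each with at least 50 cells) the genes whose levels followed the alarmin pair most closely were Ptgs2os2 (Pearson r = 0.969), Stfa2l1 (0.968), Asprv1 (0.966), Dhrs9 (0.965) and AC110211.1 (0.964), of which Stfa2l1 was among the markers that named the neutrophil-like cluster. Of the other members, Lcn2 (0.971), Mmp9 (0.970), Retnlg (0.970) and Cxcr2 (0.964) followed it closely and Mmp8 less so (0.855). The genes most like Camp, Ngp and Ltf were 9530077C05Rik (0.856), Steap4 (0.802), Igfbp6 (0.771), Map1b (0.753) and Gm13822 (0.724). This profile rests mainly on 1 point, neutrophil-like cells of Papain WT, where 1 cell held 587 of 623 UMIs of the 3 genes. Neutrophil-like cells of the other libraries had 8, 3 and 9 such UMIs, so these correlations do not show shared expression across cells. Points of 1 library share its depth and free RNA, so these correlations are given as a description.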

How the data were processed

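Per the labels and methods, live CD45.2+ cells of mouse lungs were sorted, made into droplet 3′ libraries and processed with Cell Ranger (the matrix headers name software version 3.1.0) against mm10. The values used are the raw UMI counts per gene and cell as deposited by the authors, 1 matrix per group, and 0 columns belonged to another series.

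Cells with more than 200 genes and under 15% mitochondrial UMIs were kept, and the barcodes with the top Scrublet scores (scanpy 1.11.5, 0.8% per 1000 barcodes) were removed, since Scrublet's own threshold marked 0.0175% in Papain KO. Seurat 5.3.0 aligned the libraries on 2000 variable genes with 30 dimensions and gave 26 clusters, with 700 genes, the 10 members among them, kept out. Clusters were named from fixed markers, except that a close second class was allowed between the monocyte classes and among the dendritic classes, a choice made after the clusters were seen. UMIs were summed by class and library, divided by the class total, and given with exact Poisson, binomial or conditional binomial intervals in scipy 1.17.1. Folds were counted for genes with at least 20 UMIs in both libraries together, and the code was tested on simulated data. Coordinates are from GENCODE M21 (GRCm38), which held 99.6% of the gene identifiers.

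The members and lists were chosen with earlier results of these data known. All members were named, with up to 4 genes per pathway list by summed UMIs, whatever their ratios, and the 5 genes most like each of 2 profiles of log2(CPM + 10). Other genes named from a list are those past 2-fold, named after their values were seen. The effects of 13 other settings and of 3 chosen after seeing the data are given in the closing section, with edgeR 4.0.16 used for TMM factors only.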

Additional observations from a re-analysis of the deposited data

Results flagged for a closer look

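The log2 ratio of papain to DPBS for S100a9 in neutrophil-like cells was -0.032 (-0.05 to -0.01) in WT and 0.11 (0.08 to 0.14) in KO. It was marked because the 2 genotypes lay on opposite sides of 0 with counting intervals that do not hold 0. With 1 library per group the difference between genotypes was not tested, and the WT value turned positive under 4 alternatives.

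The same ratio for Cxcr2 in B-like cells was 2.33 (0.16 to 5.53) in WT, from 2 to 12 UMIs, and -1.58 (-3.28 to -0.06) in KO, from 12 to 6 UMIs. It was marked for the same reason, the difference was not tested, and with doublets kept the KO value was 0.35.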

How the results depend on the processing

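With 1 library per group no result has a replicate check, and p-values were not computed. No paired analysis was possible because each group holds 1 library and the labels give no replicate numbers to pair. Of the alternative values of results that answer a comparison, 131 moved by less than the counting interval, 71 moved by more and 3 turned direction. Of those for single genes the numbers were 1064, 132 and 14. A minimum of 500 genes, a limit of 10% mitochondrial UMIs and counting unnamed clusters under their best class moved none of the results that answer a comparison. All values below are log2 ratios unless counts are named, and the cause of each shift was not tested. Camp, Ngp and Ltf had 0 to 23 UMIs per library in neutrophil-like cells without the richest cells, so their ratios are imprecise. Without the Papain WT cell richest in these genes (also chosen after seeing the data), the count of other granule and effector genes lower in KO than WT under papain was 2 in place of 3.

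With cells classed by a gate on marker transcripts, the papain ratio in WT neutrophil-like cells was 0.039 for S100a9 and 0.054 for the alarmin sum, and in KO 0.059 for Retnlg and 0.31 for the alarmin sum. The alarmin ratio of KO to WT was -0.42 in DPBS and -0.17 in papain. In classical monocyte-like cells the alarmin ratio was 0.28 for papain in WT, 1.81 for papain in KO, -5.61 for KO to WT in DPBS and -4.08 in papain. In B-like cells the WT papain ratio was -0.10 for S100a8, -0.75 for S100a9 and -0.50 for their sum, and the ratio of KO to WT was 0.90 for the alarmin sum in DPBS, and 2.11 for S100a8 and 2.12 for the sum in papain.

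With doublets kept, the WT papain ratio in neutrophil-like cells was 0.019 for S100a9 and 0.038 for the alarmin sum, the KO papain ratio was -0.018 for S100a8 and 0.025 for the sum, and the papain ratio of KO to WT was -0.23 for the alarmin and -0.80 for the specific granule sum. In classical monocyte-like cells the alarmin ratio was 0.53 for papain in WT, 2.22 for papain in KO, -1.60 for KO to WT in DPBS and 0.091 in papain, where S100a9 gave 0.29 and Retnlg 0.91. In B-like cells the alarmin ratio for papain was 1.80 in WT and 2.0 in KO, and Cxcr2 in KO gave 0.35. Without alignment of the libraries the alarmin ratio in classical monocyte-like cells was 0.38 for papain in WT and -2.70 for KO to WT in DPBS.

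With the mixed cluster counted as neutrophil (an alternative chosen after seeing the data), the WT papain ratio was 0.38 for S100a9, 0.38 for Retnlg, 0.38 for the alarmin and 1.14 for the specific granule sum, the KO papain ratio was 0.14 for Retnlg and 0.32 for the alarmin sum, and the papain ratio of KO to WT was -0.30 for the alarmin and -0.78 for the specific granule sum. With TMM factors the WT papain ratio in neutrophil-like cells was 0.026 for S100a9 and 0.045 for the alarmin sum, which gave 0.17 for papain in KO, -0.29 for KO to WT in DPBS and -0.17 in papain. CPM without the UMIs of the 10 members gave -0.26 and -0.16 for the last pair.

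The mean of the CPM per cell gave alarmin ratios in neutrophil-like cells of -0.064 for papain in WT, 0.19 in KO and -0.40 for KO to WT in DPBS, and specific granule ratios of 0.42 for papain in WT and -0.24 for KO to WT in papain. In classical monocyte-like cells it gave 0.39 for papain in KO and -2.81 for KO to WT in papain. Without the cell richest in the gene (also chosen after seeing the data), the alarmin ratio in neutrophil-like cells was 0.13 for papain in KO and -0.27 for KO to WT in DPBS, and the specific granule ratio 0.29 for papain in WT and -0.020 for KO to WT in papain. In classical monocyte-like cells the alarmin ratio was then 1.92 for papain in WT, 1.62 in KO and -1.15 for KO to WT in papain, and in B-like cells 1.34 for papain in KO and -0.79 for KO to WT in DPBS.

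The count of all genes past 2-fold moved with the minimum of UMIs. In neutrophil-like cells it was 415, 334, 225 and 330 for papain in WT, papain in KO, KO to WT in DPBS and KO to WT in papain with at least 20 UMIs, 1329, 1203, 1322 and 1341 with at least 5, and 26, 13, 9 and 31 with at least 100. In classical monocyte-like cells it was 414, 273, 488 and 394, then 1165, 988, 1234 and 1096, and 103, 24, 87 and 77. In B-like cells it was 442, 243, 237 and 295, then 1192, 999, 958 and 1009, and 115, 35, 26 and 52.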
